A study of Mus musculus with 22 samples.

Results

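Coronal fraction 10 was the last of 10 fractions cut in the coronal plane from the brain of 1 mouse, and the RNA of its olfactory bulb end was the subject here. It was chosen by its label, 1 array of the 22 in the series, and was compared with coronal fractions 7, 8 and 9 and with the highest of fractions 1 to 9. It pooled slabs 10 and 11, each of 100 slices of 5 µm by the labels, whereas the methods name a thicker fraction for this age. The series came from 3 untreated males of the inbred C57BL/6J strain, housed free of pathogens, and gave 10 coronal, 6 horizontal and 6 sagittal fractions. Their age was postnatal day 7 by the titles and 3 days by the age field. The labels did not name the end of the brain at which the numbering began, so the end is described below by its genes. Total RNA of each fraction was hybridised once to an Agilent mouse array in 1 colour (Cy3), so no fraction had a replicate and no test across replicates was possible. The number of arrays limits the precision, and all 10 coronal values of a gene come from the same animal.

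The olfactory bulb receives the axons of olfactory sensory neurons, which lie in the nose, and passes their signal on through mitral and tufted cells, its glutamatergic projection neurons. Its other neurons are GABAergic granule and periglomerular interneurons, which are born along the walls of the lateral ventricles and migrate forward to the bulb for a long time after birth. T-box transcription factors such as Tbx21 and Eomes mark the projection neurons, whereas homeodomain and zinc finger factors such as Dlx2 and Sp8 mark the interneuron lineage. Sensory axons carry messenger RNA, so transcripts of cells in the nose can be found in the bulb itself.

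A level below is the log2 of the processed intensity of a probe minus the 75th percentile of its array, so that 0 is the 75th percentile and 1 unit is a 2-fold difference. Feature Extraction marked 31018 of 55600 probes in fraction 10 as well above background (55.8%), against 56.5% to 59.1% in fractions 7 to 9. A probe was called highest when fraction 10 lay 1 unit or more above every one of fractions 1 to 9. It was called higher or lower when fraction 10 lay 1 unit or more above or below each of fractions 7, 8 and 9. Of the 31018 probes, 480 were called highest (1.55%), 970 higher (3.13%) and 333 lower (1.07%), and the median probe lay 0.08 units above the mean of fractions 7 to 9. Of the higher and lower calls together, 74.4% were higher. The filter asked for detection in fraction 10 only, which keeps probes that are high there and drops those that are low, and on the 25808 probes well above background on all 22 arrays 300 were higher and 299 lower (1.16% each). With no filter on dim probes, 932 were lower. The share of 74.4% became 88.0% when arrays were centred on their medians and 57.6% with no scaling between arrays, and the median difference of the probes tested moved from 0.08 to 0.22 and -0.15. Fractions 1 and 3 to 8 lay on slide 1, fraction 2 on slide 2, and fractions 9 and 10 together on slide 3, so the comparison with fraction 9 is the one made within a slide. Against fraction 9 alone, 2016 probes were higher and 1452 lower by 1 unit or more. Fraction 9 was also the most like fraction 10, with a Pearson r of 0.980 across the 26533 probes well above background in all coronal fractions, against 0.908 to 0.973 for fractions 1 to 8. Probes are not independent replicates, and all of these arrays share their probes.

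Fraction 10 is described as an olfactory bulb end through 5 marker genes, all of them called highest there. The markers were chosen with earlier results of these data known, so their calls describe the fraction and are not independent support for its name. Genes with several probes are read here from the probe with the highest median over the coronal arrays, and of 14966 genes well above background in fraction 10, 179 were called highest (1.20%), 396 higher (2.65%) and 227 lower (1.52%). Tbx21, a T-box transcription factor of mitral and tufted cells, had a level of 2.87 in fraction 10 and of -1.18 in fraction 9, and fractions 1 to 8 lay lower, the lowest at -4.76. That was 16.5-fold above the highest of the other coronal fractions. Cdhr1, a cadherin-related protein of the projection neurons, had 5.16 in fraction 10, against a lowest of -2.20, a median of 0.36 and a highest of 1.89 in the other 9, a margin of 9.64-fold. Doc2g, a C2-domain protein, had 2.83 against a highest of -0.32 in fraction 8, and Eomes, the T-box factor also known as Tbr2, had 3.38 against a highest of 0.99 in fraction 2. Dlx2, a homeodomain factor of the interneuron lineage, had 3.40 against 1.06, 1.84 and 1.79 in fractions 7, 8 and 9. The 4 projection neuron genes stood 15.8-fold to 56.7-fold above the mean of fractions 7 to 9, and Dlx2 stood 3.57-fold above it. In bulk tissue, fewer cells of a type and less RNA per cell cannot be told apart, and the same holds for more.

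**Figure D1:**
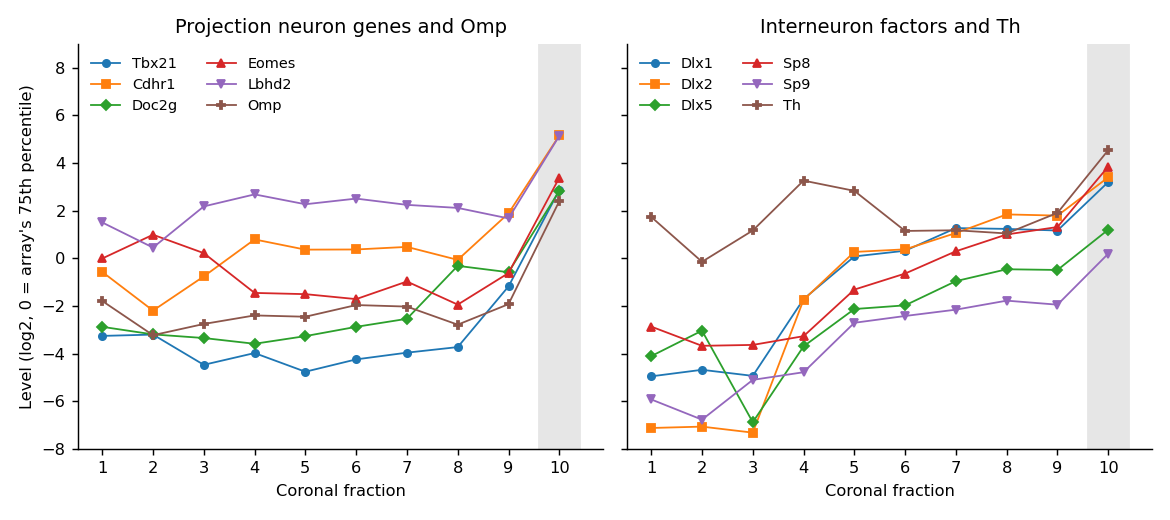
Levels (log2, 0 is the 75th percentile of each array) in coronal fractions 1 to 10, each point 1 array with no replicate and fraction 10 shaded; the left panel holds Tbx21, Cdhr1, Doc2g, Eomes, Lbhd2 and Omp, the right panel Dlx1, Dlx2, Dlx5, Sp8, Sp9 and Th. The genes on the left step up at fraction 10, Tbx21 from -1.18 in fraction 9 to 2.87, and the 5 interneuron factors, like Doc2g, are already higher in fractions 7 to 9 than in fractions 1 to 4, Sp8 stepping from 1.31 to 3.85.

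The promoters of Tbx21, Cdhr1 and Doc2g are shown because these 3 genes had the largest margins among the 5 markers by their brightest probes. The other probe of Eomes had a margin of 3.18, against 3.15 for Doc2g. Each is a window around the start of transcription, mostly before it, from RefSeq on the GRCm38.p6 build, and capitals mark the letters TCACAC on either strand, the core of a T-box motif. For Tbx21 the window is chr11:97115282-97115581 on the minus strand, for Cdhr1 chr14:37098298-37098597 on the minus strand and for Doc2g chr19:4003135-4003434 on the plus strand.
Tbx21: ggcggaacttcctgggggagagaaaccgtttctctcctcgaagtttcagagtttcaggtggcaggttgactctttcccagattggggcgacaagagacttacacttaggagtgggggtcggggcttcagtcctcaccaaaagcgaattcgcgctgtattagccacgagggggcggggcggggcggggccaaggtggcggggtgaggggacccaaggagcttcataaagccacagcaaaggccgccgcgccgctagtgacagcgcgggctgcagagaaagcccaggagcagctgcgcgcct
Cdhr1: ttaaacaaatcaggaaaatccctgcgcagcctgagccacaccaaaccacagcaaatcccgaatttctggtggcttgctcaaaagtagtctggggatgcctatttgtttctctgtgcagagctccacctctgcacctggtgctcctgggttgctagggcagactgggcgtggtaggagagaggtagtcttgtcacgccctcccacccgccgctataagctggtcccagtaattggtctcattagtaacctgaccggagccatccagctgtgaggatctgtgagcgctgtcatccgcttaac
Doc2g: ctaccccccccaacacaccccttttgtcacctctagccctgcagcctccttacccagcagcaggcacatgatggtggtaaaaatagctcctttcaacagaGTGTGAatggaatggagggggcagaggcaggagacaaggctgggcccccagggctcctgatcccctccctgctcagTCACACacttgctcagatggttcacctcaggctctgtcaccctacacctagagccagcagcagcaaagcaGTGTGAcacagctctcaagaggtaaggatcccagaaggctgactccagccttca
The Doc2g window held TCACAC at 3 places, and those of Tbx21, Cdhr1, Eomes and Dlx2 held it at 0. Among all 32851 promoter windows, 14.5% held these letters at least once. The longer motif AGGTGTGA, present in 1.28% of the windows, and the homeodomain letters TAATTA, present in 5.29%, were in 0 of the 5, and the E-box letters CAGCTG, present in 16.3%, were in 2. All were searched on both strands. These are matches of letters and say nothing of binding.

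Some projection neuron genes were far higher in fraction 10 than elsewhere and others were not. Of the 14 listed mitral and tufted genes, 13 were well above background. Of these, 6 were called highest and 0 lower, beside 1.20% and 1.52% of all genes. The median of the 13 lay 1.19 above the mean of fractions 7 to 9, beside 0.01 over all genes tested. With normexp, a model-based background correction of the median spot signals, the median was 0.77 with the same count of 6. The list includes 4 of these 5 markers, so its count is not independent of them. Lbhd2, a transcript of mitral cells, had 5.14 in fraction 10 and 0.45 to 2.68 elsewhere in the coronal series. Shisa3 had -1.12 and was not well above background in fractions 7 to 9, which puts it at least 10.98-fold higher than their mean. Tbr1, a T-box factor shared by mitral cells and deep cortical neurons, had 3.06 in fraction 10 and 4.00, 3.61 and 4.57 in fractions 7, 8 and 9. Reln, the secreted glycoprotein reelin, had -1.17, below the -0.40 of fraction 7. The vesicular glutamate transporters Slc17a7 and Slc17a6 differed from the mean of fractions 7 to 9 by 0.32 and 0.01. Lhx5, Ebf1 and Ebf3, transcription factors also used in other brain regions, were 3.53 to 3.75 units below their highest coronal fraction, and Barhl2 was not well above background in fraction 10. Of the T-box family, 11 of 15 measured genes were well above background. The 2 called highest were Tbx21 and Eomes, both among the 5 markers, and Tbx15 was higher than fractions 7 to 9 by 1.44. The 4 Ebf genes were all measured and 0 were called.

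Of 20 listed interneuron transcription factors, all 20 were well above background, 8 were called highest and 11 higher, beside 1.20% and 2.65% of all genes, and 0 were lower. Their median difference was 1.52, and Dlx2 among the 8 is also 1 of the 5 markers. Sp8, a zinc finger factor of bulb interneurons, had 3.85 in fraction 10 and 0.30, 1.00 and 1.31 in fractions 7, 8 and 9, and its other probe also exceeded every coronal fraction. Its relative Sp9 had 0.19 against -2.16, -1.78 and -1.95. Dlx1 had 3.20 against a highest of 1.27, and Dlx5 had 1.20 against a highest of -0.46. Dlx6 missed the margin, with -0.29 against a highest of -1.18. Of the Dlx family, 5 of 6 measured genes were well above background and 3 were called highest. Tshz1, a zinc finger factor of granule cells, had 4.40 against 1.63 to 2.88 in the other coronal fractions. Pbx3 had 4.56 and Meis2 5.29, both homeodomain factors, with margins of 1.29 and 1.30. With no scaling Meis2 lost its call, and 6 of the 20 factors were highest, 8 higher and 1 lower.

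Some of these factors were raised over the neighbouring fractions but were as high or higher at the far end of the series. Pax6 had -0.58 in fraction 10, -2.61 to -2.10 in fractions 7 to 9, and 1.24 in fraction 2. Meis1 had 2.43 against 0.02 to 1.34 in fractions 7 to 9, and 3.89 in fraction 3. Zic1 had 5.00 in fraction 10 and 7.06 in fraction 3, and of the 5 Zic genes 0 were called highest. Gsx1 had -2.63 against -1.23, -1.24 and -1.80 and was not called, and Gsx2 and Nr2e1 differed from the mean of fractions 7 to 9 by -0.10 and -0.57.

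Of 9 genes of interneuron subtypes and GABA synthesis well above background, 4 were called highest and 0 lower, beside 1.20% and 1.52% of all genes. Their median difference was 1.03, beside 0.01 over all genes. The counts were 3 highest with median centring, and 2 highest and 1 lower with no scaling. Synpr, the synaptic vesicle protein synaptoporin, had 5.64 in fraction 10 and 2.63 to 3.58 elsewhere, and both of its probes were called. Calb2, calretinin, had 2.25 against a highest of 0.70. Scgn, the calcium sensor secretagogin, had -1.68 and was not well above background in any other coronal fraction, so it was at least 6.15-fold higher than the highest of them. Th, tyrosine hydroxylase, the rate-limiting enzyme of dopamine synthesis, had 4.54 in fraction 10, 1.91 in fraction 9 and 3.26 in fraction 4. Of the 8 dopamine genes well above background, Th alone was called highest, and it lost that call with median centring and with no scaling. Slc6a3, the dopamine transporter, had -0.37 in fraction 10 and 3.30 in fraction 5, and Nr4a2, a factor of midbrain dopamine neurons, had 0.36 against 2.12, 1.36 and 1.39 in fractions 7, 8 and 9. Gad1, which makes GABA, had 4.14 against a highest of 3.34, whereas Gad2 and Slc32a1 each differed from the mean of fractions 7 to 9 by 0.09. Calb1 was not well above background in fraction 10.

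**Figure D2:**
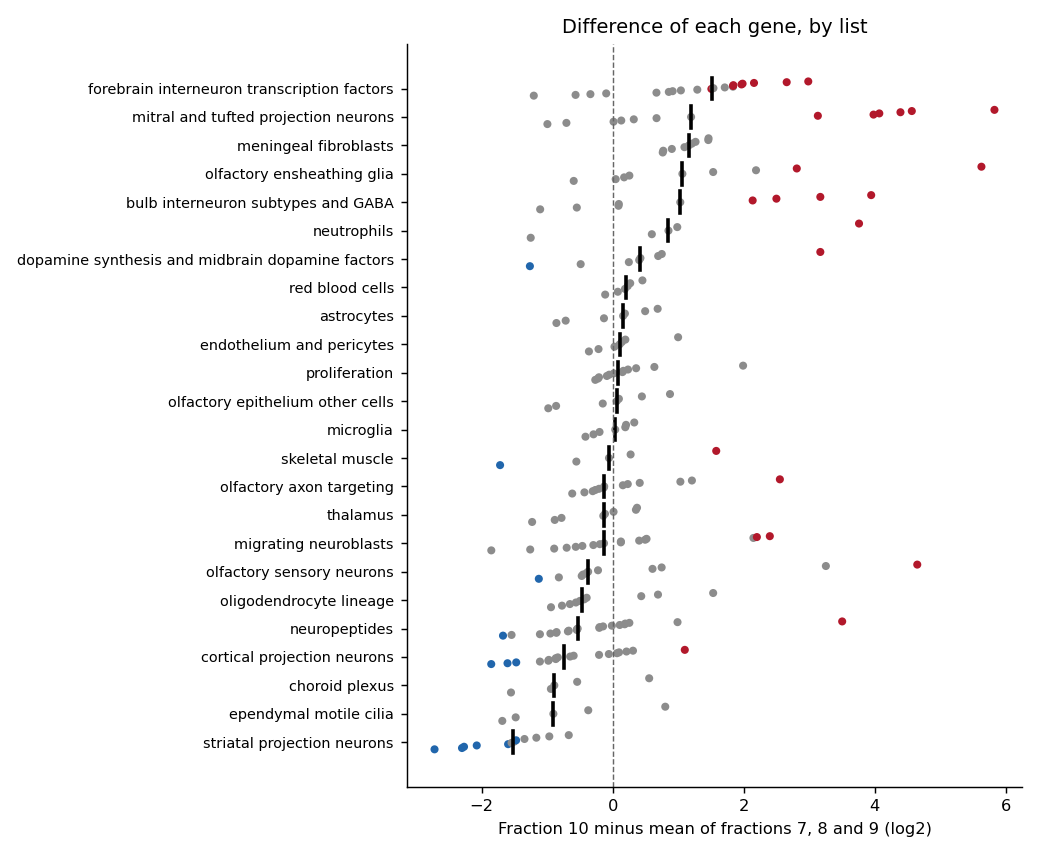
Difference of each gene of a list (log2, fraction 10 minus the mean of fractions 7, 8 and 9), for the lists with 5 or more genes well above background in fraction 10; red points were called highest, blue points lower, black bars are list medians and the dashed line is the median of all genes (0.01). Interneuron factors have a median of 1.52, projection neuron genes 1.19, meningeal fibroblast genes 1.16 and striatal genes -1.52.

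Genes of migrating neuroblasts lay on both sides of the mean of fractions 7 to 9, with differences of -1.85 to 2.40. Of 18 listed genes, 17 were well above background, all but Erbb4. Of the 17, 8 lay above the mean, 2 were called highest, 3 higher and 0 lower. Their median difference was -0.13, a sign that turned in at least 1 other scaling (-0.36 to 0.01). The calls were Prok2, a secreted chemoattractant of the bulb, with 0.63 against a highest of -0.98, and its receptor Prokr2, with 2.06 against a highest of 0.06. Igfbpl1 was higher than fractions 7 to 9 but was 0.93 below its level in fraction 3. Dcx, a microtubule protein of migrating neurons, had 4.16 against 3.90, 3.63 and 3.76, and Sox11, Cd24a and Tubb3 lay within 0.49 of the mean. All 12 proliferation genes were well above background and 0 were called by their brightest probe, with a median difference of 0.08 that ran from -0.15 to 0.22 over the scalings. The largest difference was 1.99, and 1 gene was called highest with median centring and with quantile normalization. Mki67 had 1.43 in fraction 10 and 1.20 to 1.73 in fractions 7 to 9.

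Omp, olfactory marker protein of mature sensory neurons, had 2.40 in fraction 10 and -3.23 to -1.79 in the other coronal fractions, an 18.3-fold margin. Of the 14 listed sensory neuron genes, Omp included, 11 were well above background, 1 was highest, 2 higher and 1 lower, and the median difference was -0.38. With median centring and with quantile normalization, 2 were highest and 0 lower, and with normexp 1 was higher. Cnga2 and Adcy3, the channel subunit and cyclase of odour transduction, lay 0.47 and 0.45 below the mean of fractions 7 to 9. Gnal, the G protein subunit of that pathway, which striatal neurons also use, lay 1.13 below it, with 1 of 2 probes called lower. Stoml3 was called higher, at -3.20 and not well above background in fractions 7 to 9. Of the other cells of the olfactory epithelium, 7 of 11 measured genes were well above background and 0 were called, and Cyp2g1, Cyp1a2, Obp2a and Bpifa1 were not well above background in fraction 10.

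Odorant receptors were almost all dim. Of 1060 measured receptor genes, 106 were well above background in fraction 10 and 13 were called highest, or 2 with normexp. None of the 13 was well above background in fractions 1 to 9, so they passed the filter through fraction 10 alone and nothing is read from their share, and 0 of the 48 receptors detected on all 22 arrays were called highest. Of the 13 receptors, 12 were well above background on this array and on no other of the 22. Their levels ran from -4.36 to -0.81 with a median of -2.31, against a median of 0.70 over all genes tested. Olfr1420 had -0.81, at least 11.3-fold above the background limit of the other coronal fractions, while for Olfr1037 that limit allowed no fold. Signals of this kind, present on 1 array alone, could not be checked against the other brains.

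Ensheathing glia surround the sensory axons in the outer layer of the bulb. Of their 9 measured genes, all were well above background, 2 were called highest and 4 higher, and the median difference was 1.06. Frzb, a secreted Wnt antagonist, had 1.56 in fraction 10 against a highest of -0.72 in fraction 9. Foxd3 had -1.18 and was not well above background in fractions 7 to 9, which puts it at least 11.1-fold above their mean, while fraction 1 had -2.98. Mybpc1 was higher than the mean of fractions 7 to 9 by 2.19. Npy, Sox10 and S100b differed from the mean by 0.25, 0.17 and 0.04.

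Some markers of the covering membranes were also called higher. All 9 meningeal fibroblast genes lay above the mean of fractions 7 to 9, by 0.76 to 1.46, and 4 were called higher (Dcn, Igf2, Slc6a13 and Aldh1a2), beside 2.65% of all genes, and 0 highest. With no scaling 0 were called higher, and with normexp 1 was. Their summed linear level, in multiples of the array's 75th percentile, was 594 in fraction 10 and 224 to 298 in fractions 7 to 9, and Ptgds made up most of that sum. Fraction 4 was above fraction 10 for 7 of the 9, among them Ptgds at 9.05 against 8.99 and Dcn at 4.93 against 4.70. The part of these cells, and of the bone and neutrophil markers given below, in the other results was not tested. Markers of 4 further cell types lay close to their neighbours: astrocytes had a median difference of 0.16, microglia 0.04, endothelium and pericytes 0.11 and red blood cells 0.21, with 0 genes called in any of the 4, and the sign of each of these medians turned in at least 1 other scaling. Oligodendrocyte genes had a median of -0.47, and choroid plexus and ependymal genes had -0.89 and -0.91 with 0 calls. Against fraction 9 alone, within the slide, the last 2 medians turned to 1.02 and 1.01. All 4 bone genes well above background lay above the mean of fractions 7 to 9, with a median difference of 1.92, and 2 were called higher (Sp7, at -2.32, and Ibsp, at -2.27). The median of 5 neutrophil genes was 0.85. With normexp these medians were 0.82 and 0.46, with 0 calls in both lists. The median of 5 skeletal muscle genes was -0.06, with Myh8 called highest and Myh3 lower. Sp7 and Ltf were called highest, while Runx2, Dmp1, Ckm, Actc1, Mylpf and Ngp were not well above background.

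Among the lists, those of the striatum and cortex held the most genes called lower. Of 12 striatal projection neuron genes, all 12 lay below the mean of fractions 7 to 9 and 6 were called lower (beside 1.52% of all genes), with a median of -1.52, or 4 with median centring. Drd1, the D1 dopamine receptor, had -2.81 in fraction 10 and 0.15, 0.48 and -0.90 in fractions 7, 8 and 9, 6.59-fold lower than their mean. Ppp1r1b, the phosphatase regulator DARPP-32, had 2.76 against 5.20, 5.99 and 3.99. Of 18 cortical genes, 3 were lower and the median was -0.74. Fezf2, a factor of deep-layer neurons, had -1.11 against 0.19, 0.28 and 1.01. Ccn2, a secreted matricellular protein, was the cortical-list gene called highest, with 3.13 against 2.04 in fraction 9, and it lost the call with median centring, no scaling and normexp. The 3 lower cortical calls became 1 with median centring. The 8 thalamic genes had a median of -0.13, with 0 calls and a sign that turned in at least 1 other scaling and against fraction 9 alone (0.48). Of 14 hindbrain and spinal patterning genes, 10 were not well above background in fraction 10, and the dim Hoxd3, at -1.11, was called higher than fractions 7 to 9 while fraction 1 had -1.20. Its level was at least 11.7-fold above the mean of fractions 7 to 9.

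**Figure D3:**
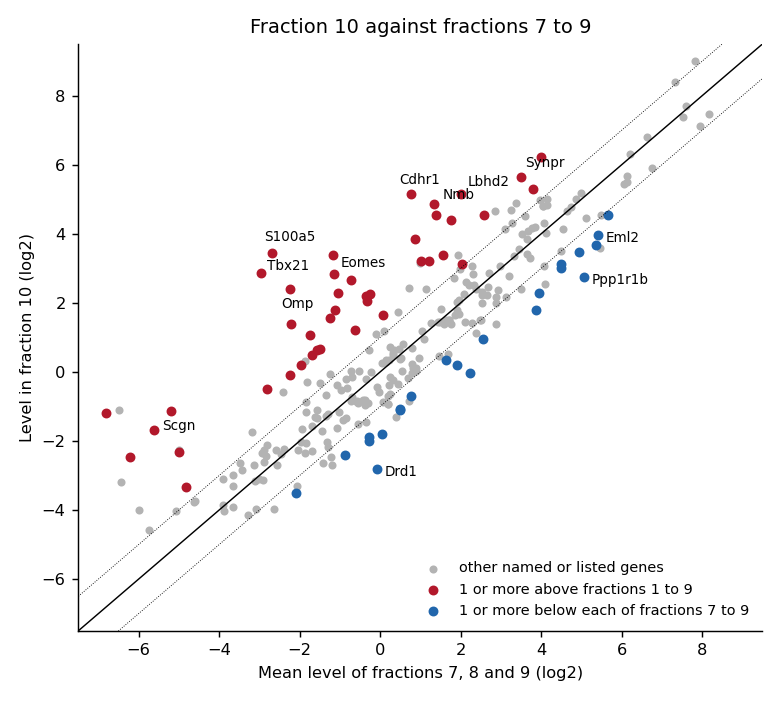
Level in fraction 10 (log2) against the mean level of fractions 7, 8 and 9 (log2) for the listed and named genes well above background in fraction 10, with the line of equality and dotted lines at 1 unit above and below; red genes were called highest and blue genes lower. S100a5 and Tbx21 lie farthest above the line among the genes drawn, at 6.13 and 5.82 units, and Drd1 farthest below, at -2.72.

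Neuropeptide genes were called in 2 of 21 cases. Nmb, neuromedin B, had 4.85 in fraction 10 and 1.14 to 2.55 elsewhere, 11.3-fold above the mean of fractions 7 to 9. Sst, somatostatin, had 3.68 against 5.28, 5.24 and 5.55. The median of the list was -0.54, and 0.15 against fraction 9 alone.

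Agreement between probes gave a stricter view, since an array with no replicate can still measure a gene more than once. Of 3933 genes with 2 or more probes well above background in fraction 10, 49 had at least 1 probe called highest and 9 had 2 or more. These 9 were Apold1, Eomes, Nmb, Gcnt1, Synpr, Igf1, Sp8, Agbl2 and Cpne4, in falling order of their second largest margin, from 2.50 to 1.11. Apold1, an endothelial protein with an apolipoprotein L domain, had 2.27 in fraction 10 and -1.83 to -0.35 in the others by its brighter probe, and its other probe had 0.91 and -2.70 to -1.59. The 2 probes of Nmb had the same level of 4.85. Gcnt1, an enzyme that branches O-linked sugar chains, had 1.08 against a highest of -1.64. Igf1, a growth factor that also guides sensory axons in the bulb, had 4 of 4 probes called, and the brightest had 2.20 in fraction 10 against -0.85 to 0.47. Igf2 was higher than fractions 7 to 9 by 1.21 but lay 1.09 below fraction 4, and of the 13 listed axon targeting genes Igf1 alone was called highest. With no scaling, 0 of the 13 were called highest by their brightest probe. Agbl2, a carboxypeptidase that trims tubulin, was dim, at -3.32, and 3 of the other 9 coronal fractions passed the background limit. Cpne4, a copine, had 2 of 3 probes called, and its brightest probe had 4.65 against 3.82 in fraction 6, short of the margin.

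On the lower side, 72 genes had at least 1 of several probes called and 22 had 2 or more. The 12 with the largest second fall were Rnd1, Npas1, Myh3, Epha7, Fgf18, Lpl, Eml2, Pcsk2, Ngb, Rgs9, Foxp1 and Casz1. Rnd1, a small GTPase, had 2.30 in fraction 10 and 3.89, 3.95 and 3.96 in fractions 7, 8 and 9. Npas1, a transcription factor of forebrain interneurons, had 0.94 against 2.67, 2.47 and 2.53. Epha7, an ephrin receptor, had 3 of 3 probes called, the brightest at -1.09 against 0.52, 0.30 and 0.69. Eml2, a microtubule-binding protein, had 3.96 against 5.41, 5.44 and 5.39, and Pcsk2, a prohormone convertase, had 3.14 against 4.60, 4.48 and 4.42. Fractions 7 to 9 were close to each other for these genes, whereas Rgs9, a striatal regulator of G protein signalling, had 1.80 against 4.14, 4.48 and 3.01. Casz1, a zinc finger factor, had 2 of 3 probes called and was dim in fraction 10, at -3.52. The brightest probes of the 12 were 2.57-fold to 4.22-fold below the mean of fractions 7 to 9.

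Further genes outside the lists, each measured by 1 probe, were chosen after their values were seen, as the 10 with the largest margin among probes well above background on all 22 arrays. S100a5, a calcium-binding protein known from olfactory sensory neurons, had 3.44 in fraction 10, -1.40 in fraction 9 and -3.65 to -2.86 in fractions 1 to 8, a margin of 28.7-fold. Nppa, the precursor of atrial natriuretic peptide, had 2.66 against a highest of -0.41, and Crybg1 had 1.37 against a highest of -1.39. Dusp4, a phosphatase of MAP kinases, had 1.80 against a highest of -0.27, and Pcbp3, an RNA-binding protein, had 6.23 against a highest of 4.20. Gm5126, Atp6ap1l, Htr3a (a serotonin-gated channel subunit), Filip1l and Lgals2 completed the 10, with margins of 1.80 to 1.94.

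Of 5330 probes of long non-coding RNA intervals well above background in fraction 10, 135 were called highest (2.53%, beside 1.55% of all probes) and 21 lower (0.394%, beside 1.07%). Probes detected in fraction 10 alone count toward the 135, so nothing is read from these shares. Of 1310 intervals with 2 or more such probes, 69 had at least 1 called highest and 5 had 2 or more. These 5, on the mm9 build of the array design and all on the forward strand, were chr2:67410825-67411407, chr1:193875525-193978800, chr8:34627209-34667814, chr8:34646787-34680312 and chr5:106982442-107045717. The intervals on chromosome 8 overlap and are not separate evidence. In the interval on chromosome 2, 2 of 3 probes were called, and the probe with the second largest margin had -2.36 in fraction 10 and was well above background on this array alone. The corresponding probe of the interval on chromosome 1, at -2.96, was also well above background on this array alone. In both intervals, 0 called probes were detected in both other brains. In the interval on chromosome 5, 2 of 5 probes well above background were called, the weaker at -3.11, and that probe was well above background on 9 of the 22 arrays.

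How far a call rested on detection was described for each fraction in the same way. Of the 480 probes called highest in fraction 10, 126 were well above background on this array alone (26.2%), 215 in no other coronal fraction, 256 in at least 1 fraction of each other brain (0.837% of the 30593 probes so detected) and 98 on all 22 arrays. A probe detected in fraction 10 and nowhere else had to be high there. The 98 of 25808 (0.380%) were kept by a filter that asked the same of every array. With dim fractions placed at their background limit, 386 of the 480 kept a margin of 1 unit. With detection on all 22 arrays, fraction 2 had 597 probes highest, and the other 8 coronal fractions had 7 to 25. Among the 98, fraction 9 was the next highest for 32 (32.7%), against 14.7% of all probes on this filter. Just outside the margin, 64 probes lay 0.9 to 1 units above every other coronal fraction, and 39 lay just inside, at 1 to 1.1.

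**Figure D4:**
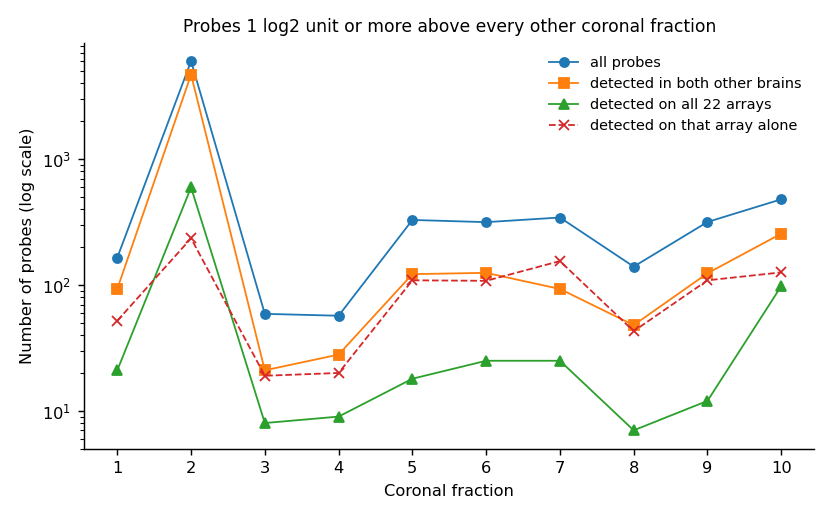
Number of probes (log scale) that lay 1 log2 unit or more above every other coronal fraction, for each coronal fraction, over all probes well above background there and over 3 subsets by detection on the other arrays. Fraction 10 has 480, of which 98 were well above background on all 22 arrays, more than any other fraction except fraction 2 on both counts.

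Levels in the other brains show where the same transcripts lay along other axes. They did not set the calls, but the 256 probes below were kept for detection in both brains, and S100a5 for detection on all 22 arrays. Of the 256, 24.6% had their highest horizontal level in fraction 4, against 11.3% of the 30593 probes tested on that filter, and 26.2% had their highest sagittal level in fraction 4, against 7.36%. The 6 projection neuron genes called highest all peaked in sagittal fraction 4, where 9.18% of genes did, as did 7 of the 13 listed genes well above background. Cdhr1, for example, had -0.63, 0.07, 1.60, 2.13, 1.28 and -0.75 in sagittal fractions 1 to 6. Omp, with 0.50, and S100a5, with 1.63, also peaked there. The 8 interneuron factors called highest all peaked in sagittal fraction 3, where 12.5% of genes did, as did 10 of the 20 listed. All of the 8 but Tshz1 were lower in fraction 4 than in fractions 3 and 5, as were 23.2% of genes. Dlx2 had 2.10, 0.93 and 1.63 in sagittal fractions 3, 4 and 5, and Sp8 had 1.71, 1.28 and 1.57. The slope fitted to spike-in controls was out of range in sagittal fraction 3 (0.82). It was in range in fractions 4 and 5 (1.02 and 1.00), and its part in this pattern was not tested. The factors share a lineage and an array, so they are not independent cases.

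**Figure D5:**
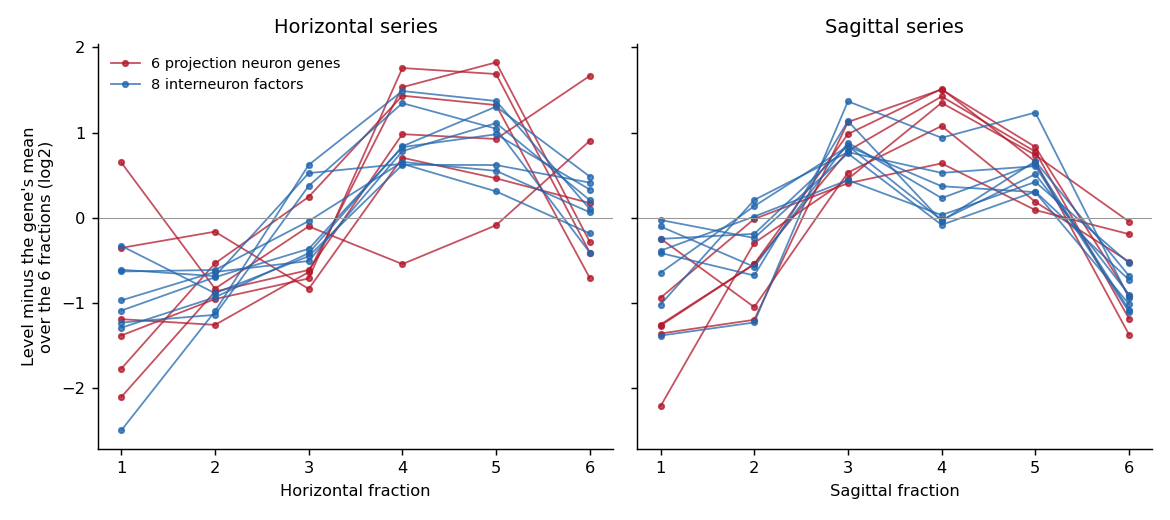
Level minus the gene's mean over the 6 fractions (log2) in the horizontal series (left) and the sagittal series (right), 1 line per gene and 1 array per point, for the 6 projection neuron genes and 8 interneuron factors called highest in coronal fraction 10. In the sagittal series the projection neuron genes peak in fraction 4 and the interneuron factors in fraction 3, and 7 of the 8 factors are lower in fraction 4 than in fractions 3 and 5. The spike-in slope of sagittal fraction 3 was out of range.

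Along the horizontal axis the 9 genes supported by several probes were highest in fraction 4 (7 genes) or 5 (2 genes), where 13.1% and 24.7% of all genes were. In the sagittal series 4 of the 9 peaked in fraction 4, 2 in fraction 3 and 1 each in fractions 1, 5 and 6. In the horizontal series, 5 of the 8 interneuron factors peaked in fraction 4 and 3 in fraction 5. Tbx21 had -3.51, -3.08, -2.84, -0.37, -0.44 and -2.53 in horizontal fractions 1 to 6, and Lbhd2 and Shisa3 peaked in fraction 6. In both other brains the highest levels stayed below that of coronal fraction 10 for Tbx21 and Omp. Tbx21 reached at most -0.37 outside the coronal series, against 2.87, and Omp 0.50 against 2.40. Slabs of the other planes hold tissue from the whole length of the brain, so these values are not levels of the bulb.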

How the data were processed

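RNA of 22 brain fractions of 3 mice was measured on Agilent SurePrint G3 arrays with 1 colour. The processed intensity per spot was deposited as the authors' scanner output from Agilent Feature Extraction 10.10.1.1, which subtracts background. The authors also deposited a log2 table, of which 99.9% of values matched the levels used here within 0.02 over the 47478 probes shared (its median for fraction 10 was -2.63). Control spots and outlier spots (131 to 187 per array) were dropped, spots of a probe were averaged, 81 probes were left out, and 55600 were analysed. From the log2 intensity of each probe, its array's 75th percentile was subtracted. A call needed a margin of 1 and a probe well above background in fraction 10. A gene was read from its brightest probe by median, and support needed 2 called probes.

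Of 28087 RefSeq probes, 26553 were named through a RefSeq table of the GRCm38.p6 assembly; interval coordinates are those of the array design on mm9. Genes were named by rank of the second largest margin (up to 20 highest, 12 lower, 5 intervals), by the 26 gene lists, and by the 10 genes added after the values were seen. Members and lists were chosen with earlier results of these data known. Each fraction was 1 array, so no test was run and precision is limited by the number of arrays. Bounds for dim fractions used the lowest signal well above background on each array. The spike-in slope was out of range on 7 arrays, coronal fractions 1 and 2, horizontal fractions 1 to 3 and sagittal fractions 1 and 3. Alternatives were other scalings, filters, margins and reference fractions. Planned normexp on mean signals was replaced, after seeing the data, by median signals with an offset of 50 (limma 3.58.1, R 4.3.3). Python 3.11.15, numpy 2.4.6, pandas 2.3.3 and matplotlib 3.10.9 were used, and scripts were tested on simulated data. Some genes of the lists are counted but not reported here by name.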

Additional observations from a re-analysis of the deposited data

How the results depend on the processing

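Each fraction was 1 array from 1 animal, so every count rests on single measurements. No paired analysis was possible because no group held more than 1 array. The 480 highest probes became 166 with normexp on median signals, 108 with detection in all 10 coronal fractions, 98 with detection on all 22 arrays, 256 with detection in both other brains, 232 at a margin of 2 and 2016 against fraction 9 alone, and leaving out fractions gave 487 to 749, the highest without fraction 9. The 970 higher probes became 303, 315 and 300 under normexp, the coronal filter and the filter on all arrays, 397 at a margin of 2 and 2016 against fraction 9, and 1155 to 1972 with 1 fraction left out (1972 without fraction 9). The 333 lower probes became 151 with median centring, 515 with no scaling, 144 with normexp, 932 with no filter on dim probes, 11 at a margin of 2 and 1452 against fraction 9, and 472 to 1012 with 1 fraction left out (1012 without fraction 7, 659 without fraction 9). The 9 supported highest genes became 5 under the coronal filter, 5 on all arrays, 5 at a margin of 2, 79 against fraction 9 and 22 with the median over probes, and leaving out fractions gave 9 to 10. The 22 supported lower genes became 7 with median centring, 11 with normexp, 0 at a margin of 2 and 53 against fraction 9, and 32 to 47 with 1 fraction left out (34 without fraction 8, 47 without fraction 9). The 5 intervals became 8 with quantile normalization, 3 with no scaling, 0 with normexp, 0 under both detection filters, 1 at a margin of 2, 76 against fraction 9 and 11 against fractions 3 to 9, and 5 to 10 with 1 fraction left out (10 without fraction 9). The settings were also run on 35 named genes. These were the 5 markers, the 9 supported highest genes, the 10 added genes and the 12 lower genes, with Eomes in 2 sets. Of their 507 values, 478 kept their direction and call, 26 lost the call (19 at a margin of 2), 2 gained it and 1 reversed, Cpne4 at -0.0019 with no scaling. The rest that lost it were Agbl2 (0.91, 0.80, 0.67 and 0.24), Igf1 (0.79), Casz1 (-0.50) and Ngb (-0.82). For the 12 lower genes, the call here was a difference from the mean of the reference fractions, not from each. Leaving out fractions could only raise a margin over the highest fraction, and detection filters left it unchanged. Part of the 478 was thus fixed in advance. Normexp on mean signals was not run. The cause was not tested.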
